A study of Mus musculus with 12 samples.

Results

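Intestinal mesenchymal cells that lack MyD88 (MyD88ko) were compared with wild-type cells (wt), both cultured from the mouse small intestine and both exposed to LPS. Its members were the 3 MyD88ko LPS and the 3 wt LPS libraries, chosen by their labels, 6 of the 12 libraries of the series, and all genes with deposited values. The cells were primary, at passage 3, from mice on the C57/Bl6 background, and had been sorted on GFP. Both groups were starved of serum overnight and then given LPS from E. coli, the lipopolysaccharide of the bacterial outer membrane, at 2 µg/ml for 6 hours. The MyD88ko genotype is ColVIcre-MyD88F/F-RosamTmG: floxed Myd88 alleles, a Cre driven by a collagen VI promoter, which is active in part of the mesenchymal cells, and a reporter that switches from red to green fluorescence where Cre acts. The wt genotype is labelled MyD88F/F-RosamTmG, so both groups carry the floxed alleles and the reporter. That label names no Cre, whereas the design text calls the wt cells Cre-positive. The mTmG reporter turns green only in cells with Cre activity, so a sort on GFP goes against a wt without Cre, and this conflict between the labels was not settled. If the genotype label holds, the deletion and the presence of Cre cannot be told apart in this comparison. Replicates are numbered, with nothing said of separate animals or cultures, so p-values measure the spread between these libraries, which may be technical.

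LPS is bound by the receptor TLR4 together with MD-2 and CD14. TLR4 signals through MyD88, which recruits IRAK kinases and TRAF6 and leads to NF-κB and AP-1, and through a second adaptor, TRIF, which leads to IRF3 and type I interferon. In the gut wall, mesenchymal cells answer bacterial products with chemokines and cytokines, and they also make the matrix, Wnt ligands and BMP antagonists around the epithelium.

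The libraries held 3′ mRNA reads (QuantSeq), and the values were read counts per gene, normalized and rounded by the authors. Estimated depth was 2.50 to 5.31 megareads counted per library, lowest in wt LPS replicate 3. Log2 values correlated across genes at r = 0.936 to 0.947 among the wt libraries, 0.921 to 0.953 among the MyD88ko libraries and 0.894 to 0.934 between genotypes (genes are not independent replicates). On the first principal component (35.3% of the variance), wt libraries lay at −32.6, −17.8 and −43.1 and MyD88ko libraries at 4.12, 23 and 66.4. MyD88ko LPS replicate 3 stood farthest out.

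Among 12385 tested genes, 185 (1.49%) differed between genotypes at a limma adjusted p under 0.05. Of these, 129 were lower in MyD88ko (1.04% of genes tested) and 56 were higher (0.452%). Here and below, a gene that passed this threshold is called lower or higher, and folds come from group means of log2(value + 1). The added 1 draws folds of low genes toward 1, but they are not thereby cautious. A library near 0 can make the fold larger than that between the mean values, as for Mmp3 (means of 62.67 and 8, given as 14.5-fold). For all gene lists below, the shares to set beside their counts are 1.49% called and 12% with an unadjusted p under 0.05. The lower genes had the larger differences: their median was 4.11-fold, against 2.45-fold for the higher genes. At least 8-fold differences were found for 30 of the lower and 3 of the higher genes. All 129 lower genes had no overlap between the 3 libraries of each group, against 8.31% of all genes tested in that direction. For the higher genes the count was 55 of 56, against 7.54% of all genes tested, and both directions together made 15.8%. The calls were made on these same libraries, so the lack of overlap largely follows from the threshold and is no separate support. In 33 of the lower genes the MyD88ko mean was under 10, where a value rests on few reads.

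**Figure D1:**
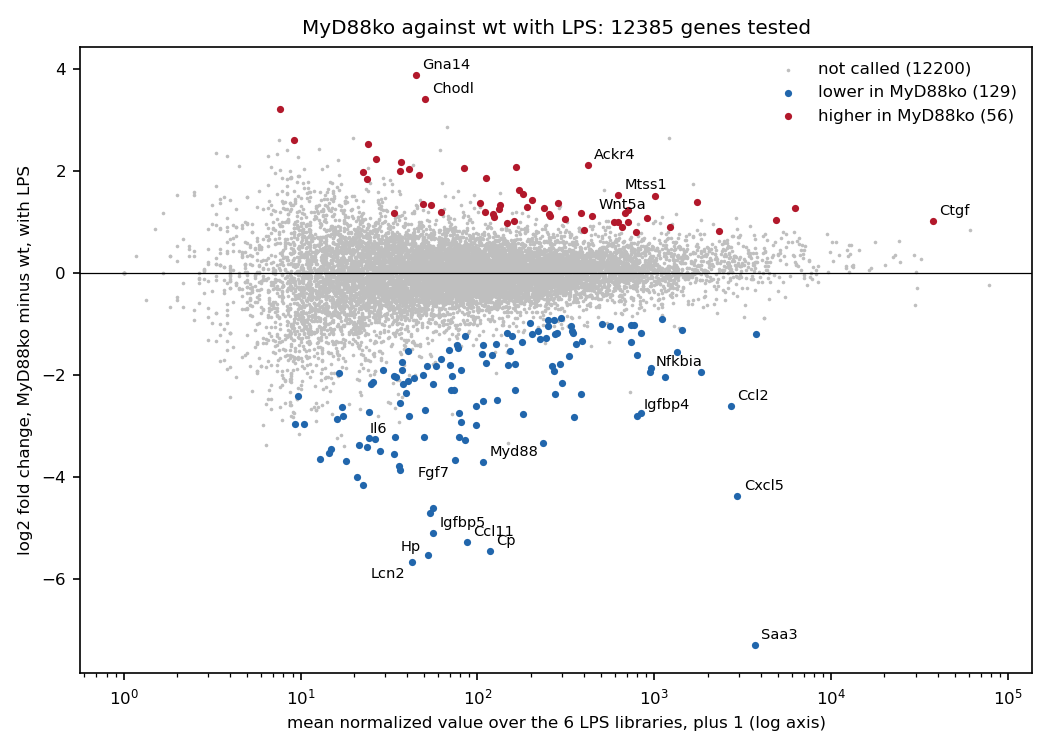
Log2 fold change (MyD88ko minus wt, with LPS) of each of 12385 tested genes against its mean normalized value over the 6 LPS libraries plus 1 (log axis), with the 129 lower genes in blue and the 56 higher genes in red. Lower genes reach −7.29 (Saa3) and higher genes 3.88 (Gna14).

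Myd88 itself (chromosome 9, 119335934 to 119341411, mm10) had values of 171, 204 and 213 in wt and 24, 22 and 5 in MyD88ko, with no overlap. The difference was 13-fold, a log2 fold change of −3.70 ± 0.43 (SE here and below, 3 libraries per group, limma adjusted p = 7.07e-05). Which exons were deleted is not labelled. A transcript without an exon can still give 3′ reads, so the remaining value is no estimate of undeleted cells. No gene of the 64 tested within 5 megabases of Myd88 was called, against 1.49% of all genes tested, and their median log2 fold change was −0.05. At that share a set of this size would hold few calls in any case.

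The other parts of the receptor pathway mostly did not pass the test. Of 18 tested members of the TLR4 complex and the MyD88 arm, 2 were lower, Myd88 and Lbp, none was higher, and the list's median log2 fold change was −0.10, against 0 over all genes tested. Lbp, a secreted protein that carries LPS to CD14, had values of 40, 76 and 11 in wt and 1, 1 and 7 in MyD88ko (−3.40 ± 0.78, limma adjusted p = 0.0294). Its lowest wt value (11) was close to its highest MyD88ko value (7). The call of Lbp was lost without wt LPS replicate 1 or 2 or MyD88ko LPS replicate 1 or 2, each left out singly (limma adjusted p = 0.0817 to 0.168). Tlr4 had 111, 63 and 125 in wt and 144, 95 and 40 in MyD88ko, and the groups overlapped (−0.22 ± 0.38, limma adjusted p = 0.879). Of the 10 tested genes of the TRIF arm and its interferon regulators, 0 were called, against 1.49% of all genes tested, with a median of −0.21. Ticam1, which encodes TRIF, had 101, 55 and 63 in wt and 53, 58 and 68 in MyD88ko. Irf3, the transcription factor downstream of TRIF, had 26, 34 and 39 in wt and 54, 56 and 74 in MyD88ko, with no overlap but a limma adjusted p of 0.278.

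Acute-phase and antimicrobial genes held the largest differences. Of 12 tested members, 6 were lower and 0 higher, and all 12 had negative log2 fold changes, with a median of −2.61. Saa3, an acute-phase apolipoprotein (chromosome 7, 46711998 to 46715700, mm10), had values of 9539, 6130 and 6455 in wt and 23, 48 and 82 in MyD88ko. The 2 groups were separated 157-fold (−7.29 ± 0.95, limma adjusted p = 0.00461). Cp (ceruloplasmin, which carries copper and oxidizes iron) had 314, 139 and 226 in wt and 14, 3 and 1 in MyD88ko, 43.7-fold lower (−5.45 ± 0.58, limma adjusted p = 2.81e-05).

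Hp, which encodes the hemoglobin-binding protein haptoglobin, had 81, 111 and 107 in wt and was listed at 0 in MyD88ko LPS replicates 1 and 3, with 9 in replicate 2 (−5.53 ± 0.93, limma adjusted p = 0.00414). Lcn2, an iron-sequestering antibacterial lipocalin, had 124, 32 and 93 in wt and 2, 0 and 0 in MyD88ko (−5.66 ± 0.71, limma adjusted p = 0.000132). Both genes were near 0 in every MyD88ko library, so their fold depends on the value added before the logarithm. With 5 added in place of 1, the log2 fold changes were −3.88 for Hp and −3.79 for Lcn2. Steap4, a metalloreductase of iron and copper, had 35, 67 and 22 in wt and 4, 1 and 0 in MyD88ko (−4.15 ± 0.85, limma adjusted p = 0.0119), a call lost without wt LPS replicate 1 or 2 or MyD88ko LPS replicate 3 (limma adjusted p = 0.0534 to 0.0920). The sixth member called was Ptx3, a soluble pattern-recognition pentraxin, at 429, 401 and 612 in wt and 177, 125 and 52 in MyD88ko. The metallothioneins Mt1 and Mt2, which bind zinc and copper, had limma adjusted p-values of 0.543 and 0.334.

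**Figure D2:**
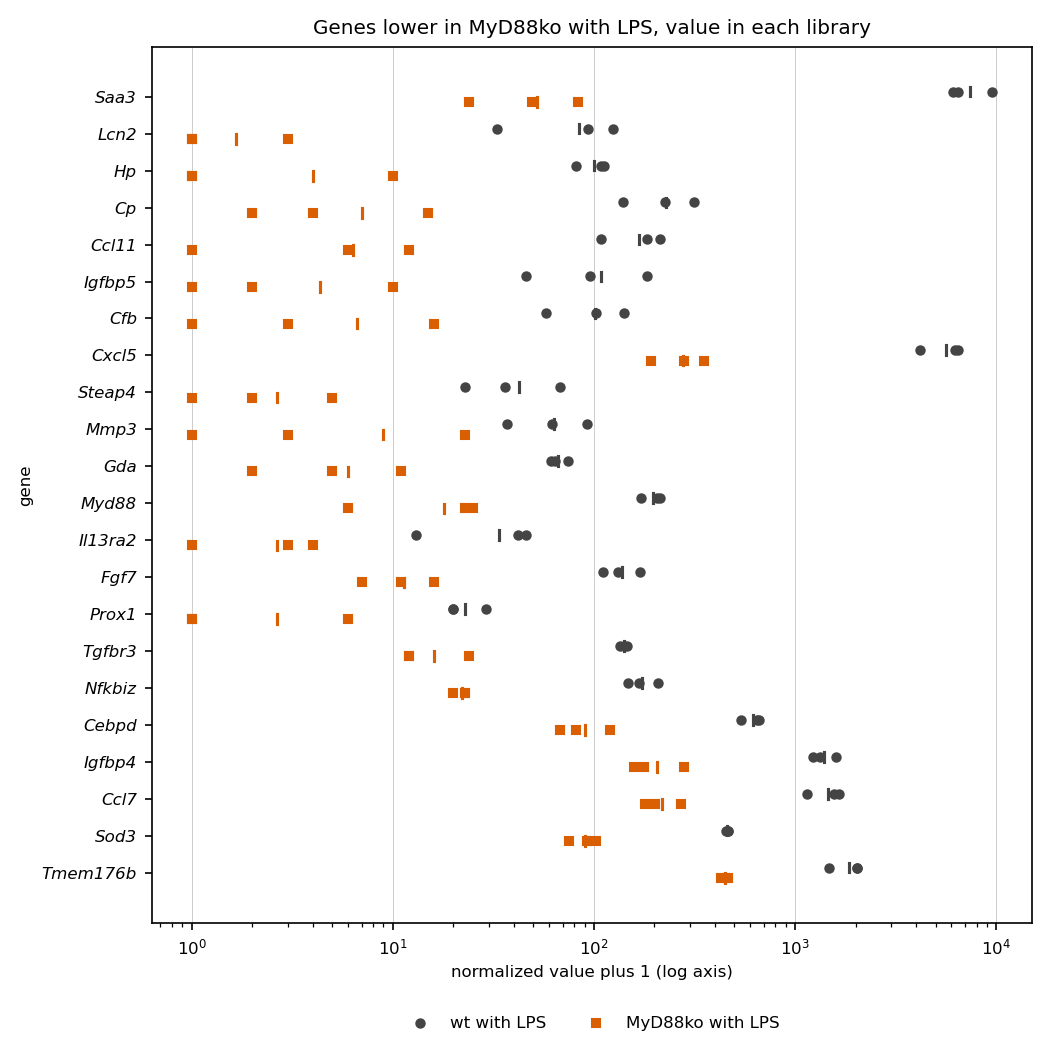
Normalized value plus 1 (log axis) in each of the 3 wt and 3 MyD88ko LPS libraries (points) with the group mean (tick) for the named genes lower in MyD88ko. The groups do not overlap for any gene shown, from Saa3 (6130 to 9539 against 23 to 82) to Tmem176b (1478 to 2044 against 429 to 464).

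Of 9 tested chemokines that attract neutrophils, monocytes and eosinophils, 4 (44.4%) were called lower, 0 higher, and 8 had an unadjusted p under 0.05. Over all genes tested these shares were 1.49% called and 12% with an unadjusted p under 0.05. All 9 had negative log2 fold changes (median −2.42). Cxcl5, a ligand of the neutrophil receptor CXCR2, had 6242, 6439 and 4193 in wt and 192, 354 and 279 in MyD88ko (20.6-fold, −4.37 ± 0.43, limma adjusted p = 7.07e-05). Ccl2, the main monocyte chemokine, had 4765, 5022 and 4204 in wt and 660, 1046 and 636 in MyD88ko (6.11-fold, −2.61 ± 0.41, limma adjusted p = 0.00381). Ccl11, the eosinophil chemokine eotaxin, had 182, 212 and 107 in wt and 5, 11 and 0 in MyD88ko, 38.8-fold lower (−5.28 ± 0.65, limma adjusted p = 0.000132).

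Ccl2, Ccl7 and Ccl11 lie in that order within chromosome 11, 82035571 to 82062955 (mm10), with Ccl8 from 82115185. Ccl7, a second monocyte chemokine of this cluster, was 6.73-fold lower. Ccl8 had 87, 36 and 52 in wt and 6, 12 and 13 in MyD88ko, with no overlap but a limma adjusted p of 0.107. Cxcl2, another neutrophil chemokine, had 57, 51 and 57 in wt against 3 and 5 in MyD88ko LPS replicates 1 and 2 and 47 in replicate 3. Among 9 other chemokines and scavenging receptors, Cxcl16 was lower, at 216, 224 and 205 in wt and 45, 58 and 20 in MyD88ko, and Ackr4 was higher. Cxcl10, an interferon-induced T cell chemokine, had 84, 177 and 95 in wt and 85, 67 and 22 in MyD88ko, and the groups overlapped.

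Of 17 tested NF-κB subunits, inhibitors and targets, 6 were lower and 0 higher (median −0.36), and none of the called genes was a subunit. The 6 were Bcl3, Nfkbiz, Zc3h12a, Nfkbia, Sod2 and Tnfaip2. Nfkbia, the inhibitor IκBα that NF-κB induces, had 1394, 1578 and 1498 in wt and 393, 420 and 355 in MyD88ko, and Nfkbiz, a nuclear cofactor needed for a second wave of NF-κB targets, had 147, 207 and 166 in wt and 22, 19 and 22 in MyD88ko. Zc3h12a, an RNase that degrades Il6 mRNA, had 111, 104 and 150 in wt and 24, 31 and 18 in MyD88ko (−2.29, limma adjusted p = 0.00295). In all 3 genes the gap between groups was wider than the range within either group. The subunits Rela, Nfkb1, Nfkb2 and Relb had log2 fold changes of −0.25, −0.28, −0.26 and −0.36, with limma adjusted p-values from 0.765 to 0.844.

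Transcription factors of the C/EBP family, which act with NF-κB at acute-phase promoters, were among the most clearly separated genes. Cebpd had 649, 540 and 658 in wt and 81, 120 and 67 in MyD88ko (7.00-fold lower, −2.81 ± 0.30, limma adjusted p = 2.81e-05). Cebpb had 456, 535 and 486 in wt and 142, 210 and 134 in MyD88ko (3.08-fold lower, limma adjusted p = 0.000713). With Ier3, a stress-induced survival gene at 2112, 1698 and 2077 in wt and 985, 781 and 965 in MyD88ko, they were the only members called among 24 tested AP-1, C/EBP and immediate-early factors, whose median was −0.42. In each of these genes every MyD88ko value was below every wt value. The call of Ier3 was lost without wt LPS replicate 1 or 3 or MyD88ko LPS replicate 2 (limma adjusted p = 0.0976 to 0.123). Fosl1, an AP-1 subunit, had 35, 16 and 19 in wt and 6, 9 and 1 in MyD88ko, with a limma adjusted p of 0.104.

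Promoter sequences were available for 83 of the 129 lower and 34 of the 56 higher genes, and are shown for 5 lower genes because these windows hold a match to an NF-κB or a C/EBP motif. Each is the reference sequence (RefSeq, GRCm38.p6) from 250 bases before to 50 bases after the annotated start, 5′ to 3′ on the gene's strand, and capitals mark the matches. The motifs searched on both strands were the NF-κB consensus and the C/EBP motif TTGCNNAA. Igfbp5 and Steap4 came from a rule on the most strongly lower genes, and Saa3, Il6 and Nfkbia were added after their values were seen. Saa3 (chr7:46715627-46715926, minus strand) holds 1 C/EBP match, 91 bases before the start, and Nfkbia (chr12:55492598-55492897, minus strand) 1 NF-κB match, 19 bases before it. Il6 (chr5:30012864-30013163, plus strand) holds both motifs, with C/EBP 120 and NF-κB 34 bases before the start. Steap4 (chr5:7960222-7960521, plus strand) holds NF-κB matches 240 and 216 bases and a C/EBP match 79 bases before the start, and Igfbp5 (chr1:72874816-72875115, minus strand) an NF-κB match 186 bases before it.
Saa3: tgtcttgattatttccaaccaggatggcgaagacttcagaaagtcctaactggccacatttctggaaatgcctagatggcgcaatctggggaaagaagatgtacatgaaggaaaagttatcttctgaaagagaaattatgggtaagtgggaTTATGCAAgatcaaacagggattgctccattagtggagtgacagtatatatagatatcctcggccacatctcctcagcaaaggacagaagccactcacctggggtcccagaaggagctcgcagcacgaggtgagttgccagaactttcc
Nfkbia: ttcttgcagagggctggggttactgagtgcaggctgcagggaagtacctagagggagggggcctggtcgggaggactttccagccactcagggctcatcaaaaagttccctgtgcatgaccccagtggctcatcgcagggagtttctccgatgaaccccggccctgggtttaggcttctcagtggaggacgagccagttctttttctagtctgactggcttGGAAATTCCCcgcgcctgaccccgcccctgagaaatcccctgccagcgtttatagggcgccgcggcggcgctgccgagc
Il6: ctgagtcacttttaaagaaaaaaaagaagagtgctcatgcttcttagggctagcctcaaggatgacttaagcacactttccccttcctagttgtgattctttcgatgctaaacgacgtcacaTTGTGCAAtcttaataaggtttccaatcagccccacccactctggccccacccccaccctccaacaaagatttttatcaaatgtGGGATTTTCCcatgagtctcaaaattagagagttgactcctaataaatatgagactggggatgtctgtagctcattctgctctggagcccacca
Steap4: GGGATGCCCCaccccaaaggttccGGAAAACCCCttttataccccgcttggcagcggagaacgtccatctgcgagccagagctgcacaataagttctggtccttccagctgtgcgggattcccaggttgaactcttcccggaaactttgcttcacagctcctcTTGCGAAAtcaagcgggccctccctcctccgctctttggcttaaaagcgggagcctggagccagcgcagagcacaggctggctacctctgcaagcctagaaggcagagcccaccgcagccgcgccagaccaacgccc
Igfbp5: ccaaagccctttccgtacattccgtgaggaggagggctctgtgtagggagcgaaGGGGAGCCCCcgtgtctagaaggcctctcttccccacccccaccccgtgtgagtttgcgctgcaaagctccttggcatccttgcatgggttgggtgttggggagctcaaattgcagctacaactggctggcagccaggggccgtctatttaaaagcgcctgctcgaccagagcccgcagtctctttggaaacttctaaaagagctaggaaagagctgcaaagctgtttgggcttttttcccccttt

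The NF-κB consensus was found in the windows of 12 of the 83 lower genes (14.5%) and 3 of the 34 higher genes (8.82%), against 454 of 8923 tested genes with a window (5.09%) and 4.35% of all 27025 promoters. The C/EBP motif was found in 17 of 83 lower (20.5%) and 2 of 34 higher genes (5.88%), against 8.06% of tested genes and 10.8% of all promoters. These shares are descriptions of letters in a 300-base window, and were not tested.

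Of 13 tested members of the IL-6 family list, 3 were lower and 0 higher (median −0.50). Il6 had 50, 54 and 77 in wt and 8, 4 and 5 in MyD88ko. Osmr, the receptor of oncostatin M, had 147, 170 and 147 in wt and 53, 58 and 62 in MyD88ko (2.65-fold lower, −1.41 ± 0.23, limma adjusted p = 0.00212). Lifr, the receptor of leukemia inhibitory factor, had 60, 42 and 74 in wt and 22, 13 and 25 in MyD88ko (limma adjusted p = 0.0470), a call lost without any single LPS library other than MyD88ko LPS replicate 3 (0.0571 to 0.202). Among 19 other cytokines and receptors, 0 were called (median −0.46). An unadjusted p under 0.05 was found for 6 in the lower direction and 1 in the higher, against 12% of all genes tested. Il34, a ligand of the CSF1 receptor, came closest, with 28, 58 and 17 in wt and 14, 7 and 0 in MyD88ko (limma adjusted p = 0.0927). Il13ra2, a receptor of IL-13 that is on neither list, had 45, 12 and 41 in wt and 2, 3 and 0 in MyD88ko (12.8-fold lower, −3.68 ± 0.81, limma adjusted p = 0.0214). Its call was lost without wt LPS replicate 1 or 3 or MyD88ko LPS replicate 3 (limma adjusted p = 0.0894 to 0.154).

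In the complement list, 2 of 11 tested members were lower and 0 higher (median −1.62). Cfb, the alternative-pathway protease factor B, had 141, 102 and 57 in wt and 15, 0 and 2 in MyD88ko (−4.70 ± 0.76, limma adjusted p = 0.00414, and 0.0513 with voom weights). The predicted gene Gm20547 overlaps Cfb on the same strand (chromosome 17, from 34856412, mm10), so their reads may not be separable. Serping1, the C1 inhibitor, had 439, 936 and 546 in wt and 114, 177 and 81 in MyD88ko (5.12-fold lower, limma adjusted p = 0.00114). C3, the central complement component, had 221, 180 and 147 in wt against 1 and 8 in MyD88ko LPS replicates 1 and 2 and 326 in replicate 3, and was not called (limma adjusted p = 0.421).

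Interferon-stimulated genes leaned to lower values. Of 34 tested members, 2 (5.88%) were called, both lower, against 1.49% of all genes tested. The count covers this list alone. Zbp1, Ly6e, Ifi211 and Ube2l6, which are not on it and were named after their values were seen, were also called lower (limma adjusted p = 0.0111 to 0.0475). Negative log2 fold changes were found for 29 members (median −0.67), and 13 of the 34 had an unadjusted p under 0.05, all in the lower direction, against 12% of all genes tested. Ifitm1, an interferon-induced membrane protein that restricts virus entry, had 57, 62 and 33 in wt and 2, 4 and 5 in MyD88ko (11.1-fold lower, limma adjusted p = 0.00415). Bst2, the virus-tethering protein tetherin, had 735, 864 and 968 in wt and 584, 370 and 286 in MyD88ko (limma adjusted p = 0.0385). Of 15 tested genes of antigen presentation and the immunoproteasome, 0 were called, with a median of −0.40. Of 9 leukocyte adhesion and co-stimulation genes, Vcam1 and Cd44 were lower. Vcam1, the ligand of leukocyte integrins, had 901, 1064 and 956 in wt and 485, 612 and 378 in MyD88ko (2.01-fold, limma adjusted p = 0.0420). The calls of Bst2, Vcam1 and Cd44 were each lost in the fit of the 6 LPS libraries alone, with limma adjusted p-values of 0.0740, 0.0543 and 0.0787. They were also lost without any single wt LPS library and without MyD88ko LPS replicate 3, with limma adjusted p-values of 0.0834 to 0.171 for Bst2, 0.115 to 0.152 for Vcam1 and 0.0920 to 0.128 for Cd44. Bst2 and Cd44 were lost without MyD88ko LPS replicate 2 (0.133 and 0.159), and Vcam1 without replicate 1 (0.0785).

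**Figure D3:**
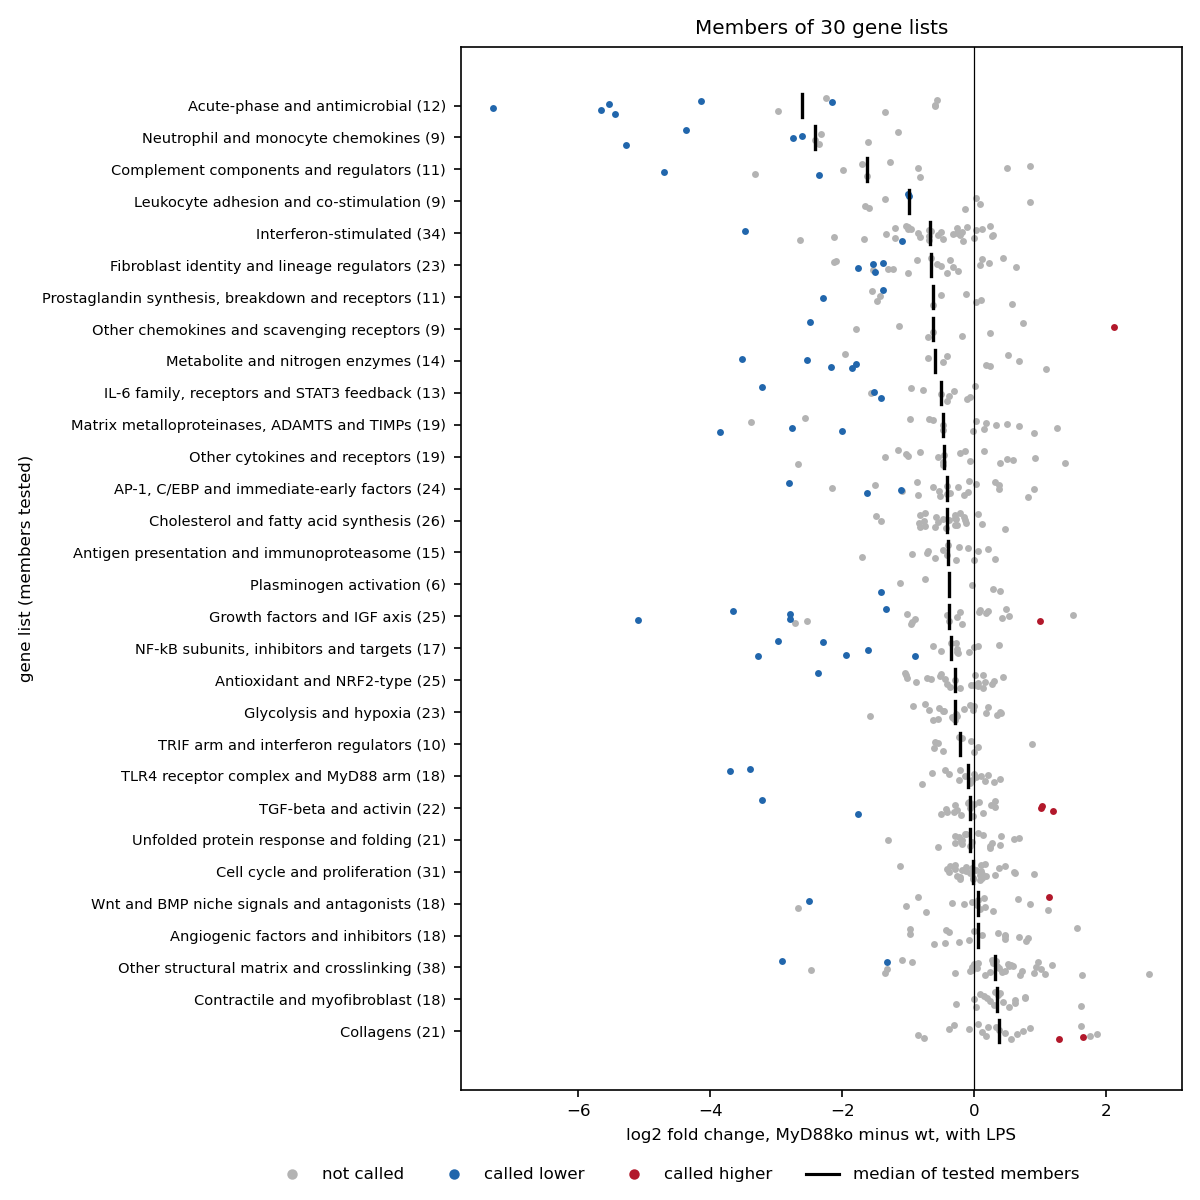
Log2 fold change (MyD88ko minus wt, with LPS) of each tested member of 30 gene lists, with members called lower in blue, higher in red and not called in grey, and a black tick at the list's median. Medians run from −2.61 (acute-phase and antimicrobial) to 0.38 (collagens), and the median of all tested genes was 0.

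Enzymes and proteases of inflammation were lower in part. In the prostaglandin list, Ptges, the terminal prostaglandin E synthase, had 335, 265 and 199 in wt and 66, 80 and 27 in MyD88ko (4.90-fold lower, limma adjusted p = 0.00177). Ptgs1, the cyclooxygenase COX-1, had 616, 329 and 623 in wt and 238, 190 and 154 in MyD88ko (2.62-fold lower, limma adjusted p = 0.00864). These were the 2 members called of 11 tested, and the call of Ptgs1 was lost without wt LPS replicate 1 or 3 (limma adjusted p = 0.0803 and 0.0627). Ptgs2, the inducible COX-2, had 900, 262 and 771 in wt and 387, 144 and 164 in MyD88ko, and the groups overlapped through wt LPS replicate 2 (limma adjusted p = 0.303).

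Of 19 matrix metalloproteinases, ADAMTS and TIMP genes, 3 were lower and 0 higher (median −0.47). Mmp3 (stromelysin 1) had 61, 91 and 36 in wt and 2, 22 and 0 in MyD88ko (14.5-fold, limma adjusted p = 0.0157), Mmp10 (stromelysin 2) 92, 106 and 39 in wt and 15, 14 and 25 in MyD88ko (4-fold, limma adjusted p = 0.0318). Mmp9, a gelatinase, had 261, 475 and 208 in wt and 55, 48 and 29 in MyD88ko (6.82-fold, limma adjusted p = 0.000333). The calls of Mmp3 and Mmp10 were lost without wt LPS replicate 1 or 2 or MyD88ko LPS replicate 1, that of Mmp3 also without MyD88ko LPS replicate 3 and that of Mmp10 without replicate 2 (limma adjusted p = 0.0519 to 0.0888 for Mmp3 and 0.0806 to 0.181 for Mmp10). Mmp13, a collagenase, had 41, 33 and 19 in wt and 2, 4 and 8 in MyD88ko, with no overlap and a limma adjusted p of 0.0729.

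Growth factors and the insulin-like growth factor axis held the gene with the smallest p of the comparison. Igfbp4, a secreted IGF-binding protein, had 1333, 1606 and 1230 in wt and 157, 177 and 281 in MyD88ko (6.93-fold lower, −2.79 ± 0.24, limma adjusted p = 2.8e-06). Igfbp5, a related binding protein, had 45, 182 and 95 in wt and 9, 1 and 0 in MyD88ko (34.3-fold lower, limma adjusted p = 0.00212, and 0.113 with voom weights). Fgf7, the mesenchymal growth factor for epithelium, had 168, 131 and 110 in wt and 15, 6 and 10 in MyD88ko (12.6-fold lower). Of 25 tested members, 5 were lower (the others being Igf1 and Hgf), 1 was higher (Pdgfc) and the median was −0.39. Hgf, a second mesenchymal factor that acts on epithelium, had 37, 19 and 32 in wt and 2, 4 and 4 in MyD88ko. Pdgfc, a ligand of PDGFRα, had 112, 93 and 88 in wt and 176, 212 and 197 in MyD88ko (limma adjusted p = 0.04).

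The TGF-β and activin list moved in both directions: 2 of 22 tested members were lower and 3 were higher (median −0.07). Tgfbr3, the co-receptor betaglycan, had 134, 146 and 140 in wt and 11, 23 and 11 in MyD88ko (9.32-fold lower, −3.22 ± 0.38, limma adjusted p = 8.1e-05). Ltbp1, which stores latent TGF-β in the matrix, had 423, 398 and 418 in wt and 896, 991 and 948 in MyD88ko (2.28-fold higher, 1.19 ± 0.22, limma adjusted p = 0.00489). Tgfb3, a TGF-β ligand, had 432, 279 and 479 in wt and 836, 613 and 926 in MyD88ko. Ctgf, a matricellular target of TGF-β and YAP, had 24126, 21094 and 27979 in wt and 67641, 41725 and 41997 in MyD88ko (2.03-fold higher, limma adjusted p = 0.0272). The groups did not overlap for any of these genes. The calls of Tgfb3 and Ctgf were lost in the fit of the 6 LPS libraries alone and without wt LPS replicate 1 or 2 or MyD88ko LPS replicate 1, and that of Tgfb3 without MyD88ko LPS replicate 3 (limma adjusted p = 0.0735 to 0.158 for Tgfb3 and 0.0787 to 0.119 for Ctgf).

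Matrix genes had medians above 0, with calls in both directions. Of 21 tested collagens, 2 (9.52%) were called, both higher (median 0.38), against 1.49% of all genes tested. Col7a1, the anchoring-fibril collagen, had 94, 63 and 88 in wt and 228, 194 and 364 in MyD88ko (3.11-fold higher, 1.64 ± 0.31, limma adjusted p = 0.00590). Col11a1, a fibrillar collagen, had 165, 144 and 99 in wt and 238, 355 and 412 in MyD88ko (2.44-fold higher, limma adjusted p = 0.00832), a call lost without wt LPS replicate 3 or MyD88ko LPS replicate 2 (0.0620 and 0.0528). Col1a1, the main fibrillar collagen, had 35191, 60610 and 36670 in wt and 83203, 76251 and 72836 in MyD88ko, with no overlap and a limma adjusted p of 0.187. Of 38 other structural matrix genes, Lama4 and Vcan (5.26%) were lower and 0 were higher, with a median of 0.31. Lama4, a laminin chain, had 163, 190 and 68 in wt and 19, 30 and 7 in MyD88ko (7.58-fold lower, limma adjusted p = 0.00172). Of 18 contractile and myofibroblast genes, 0 were called (median 0.34), and Tagln, an actin-binding protein of smooth muscle, had 8712, 6173 and 6177 in wt and 12889, 10802 and 11888 in MyD88ko (limma adjusted p = 0.0542).

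Wnt and BMP niche genes gave 1 call in each direction among 18 tested members (median 0.05). Sfrp1, a secreted Wnt antagonist, had 112, 297 and 144 in wt and 27, 23 and 38 in MyD88ko (5.71-fold lower, limma adjusted p = 0.000553). Wnt5a, a non-canonical Wnt ligand, had 244, 319 and 274 in wt and 624, 518 and 691 in MyD88ko (2.18-fold higher, limma adjusted p = 0.00282). Grem1, a BMP antagonist of the niche, had 4645, 3876 and 3777 in wt and 1988, 2903 and 2017 in MyD88ko, with no overlap and a limma adjusted p of 0.0525. Among 23 genes of fibroblast identity, 4 were lower and 0 higher (median −0.66): Pdgfra, Ly6a, Pdpn and Tbx18. Pdgfra, the PDGF receptor that marks gut fibroblasts, had 383, 589 and 380 in wt and 131, 144 and 113 in MyD88ko (3.41-fold lower, limma adjusted p = 0.00222). The calls of Ly6a, Pdpn and Tbx18 were lost in the fit of the 6 LPS libraries alone and without wt LPS replicate 1, MyD88ko LPS replicate 2 or MyD88ko LPS replicate 3. They were also lost without wt LPS replicate 2 (Ly6a, Tbx18) or 3 (Pdpn, Tbx18) or MyD88ko LPS replicate 1 (Ly6a), with limma adjusted p-values of 0.0519 to 0.228 for Ly6a, 0.0877 to 0.189 for Pdpn and 0.0535 to 0.209 for Tbx18.

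Of 14 tested enzymes and carriers of small metabolites, 5 were lower and 0 higher (median −0.59). Ch25h, which makes a hydroxycholesterol, and Cyp7b1, which metabolizes it, were 4.53-fold and 3.47-fold lower. Cyp7b1 had 121, 110 and 91 in wt and 40, 26 and 26 in MyD88ko, and Ch25h had 36, 43 and 39 in wt and 4, 13 and 9 in MyD88ko. Hsd11b1, which regenerates active glucocorticoid, had 68, 65 and 46 in wt and 20, 12 and 3 in MyD88ko (limma adjusted p = 0.0347). Aldh1a2, which makes retinoic acid, was also lower, at 25, 29 and 22 in wt and 2, 0 and 3 in MyD88ko (limma adjusted p = 0.04). The call of Cyp7b1 was lost without wt LPS replicate 1 (limma adjusted p = 0.0628). The calls of Ch25h and Hsd11b1 were lost without any single wt LPS library or MyD88ko LPS replicate 3, and without MyD88ko LPS replicate 1 for Ch25h and 2 for Hsd11b1 (0.0618 to 0.122 for Ch25h and 0.0680 to 0.165 for Hsd11b1). Sod3, the secreted superoxide dismutase, had 463, 465 and 454 in wt and 74, 101 and 92 in MyD88ko (5.17-fold lower, −2.37 ± 0.25, limma adjusted p = 2.81e-05). It was the only member called of 25 antioxidant genes, whose median was −0.29, but that list is not complete. Sod2, another superoxide dismutase, was counted in the NF-κB list and was 3.06-fold lower (limma adjusted p = 0.000214). Mgst1 and Fth1, on neither list, were also called lower (limma adjusted p = 0.0482 and 0.00511).

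The lists of cell cycle (31 tested, median −0.02), glycolysis and hypoxia (23, −0.29), cholesterol and fatty acid synthesis (26, −0.41), unfolded protein response (21, −0.06) and angiogenic factors (18, 0.06) held 0 calls by limma at an adjusted p under 0.05. Unadjusted p-values under 0.05 numbered 3 in the cell cycle list, 7 in glycolysis and hypoxia, 6 in cholesterol and fatty acid synthesis, 4 in the unfolded protein response and 3 among angiogenic factors. In the cholesterol list 23 of 26 log2 fold changes were negative. Of all genes tested, 12% had an unadjusted p under 0.05. Hif1a, which is not on the glycolysis and hypoxia list, was called lower (2.27-fold, limma adjusted p = 0.00755) and is given among the other observations.

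The largest differences among genes higher in MyD88ko were those of Gna14 and Chodl. Gna14, a G protein α subunit of the Gq class (chromosome 19, 16435667 to 16610818, mm10), had 1, 10 and 6 in wt and 53, 118 and 75 in MyD88ko (14.7-fold higher, 3.88 ± 0.55, limma adjusted p = 0.000553). Chodl, the C-type lectin-like membrane protein chondrolectin, had 4, 9 and 11 in wt and 64, 91 and 120 in MyD88ko (10.6-fold higher, 3.41 ± 0.48, limma adjusted p = 0.000376). Agtr1a, the angiotensin II receptor, had 22, 12 and 6 in wt and 70, 61 and 44 in MyD88ko (4.56-fold higher, limma adjusted p = 0.0135), a call lost without wt LPS replicate 3 or MyD88ko LPS replicate 1 or 2 (0.0609 to 0.0696). Every MyD88ko value of these 3 genes was above every wt value.

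Cthrc1, a secreted protein of injured and remodelling stroma, had 52, 24 and 22 in wt and 95, 162 and 143 in MyD88ko (4.20-fold higher, limma adjusted p = 0.00554). Nkain4, a partner of the sodium pump, had 55, 43 and 73 in wt and 363, 346 and 109 in MyD88ko (4.24-fold higher, limma adjusted p = 0.00311), lowest in MyD88ko LPS replicate 3. Npr3, the natriuretic peptide clearance receptor, had 105, 84 and 76 in wt and 175, 264 and 371 in MyD88ko (2.92-fold higher, limma adjusted p = 0.00352). Among genes with narrow spreads, Mtss1, an actin- and membrane-bending protein, had 324, 319 and 315 in wt and 908, 1039 and 840 in MyD88ko (2.89-fold higher, limma adjusted p = 0.00414). Gpc4, a heparan sulfate proteoglycan of the cell surface, had 601, 540 and 591 in wt and 1188, 1214 and 1290 in MyD88ko (2.13-fold higher, limma adjusted p = 0.00260). Csrp2, a LIM protein of smooth muscle and myofibroblasts, had 402, 453 and 407 in wt and 913, 957 and 1128 in MyD88ko (2.37-fold higher). The higher genes had a median difference smaller than that of the lower genes, but these 3 were separated by gaps wider than either group's range.

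**Figure D4:**
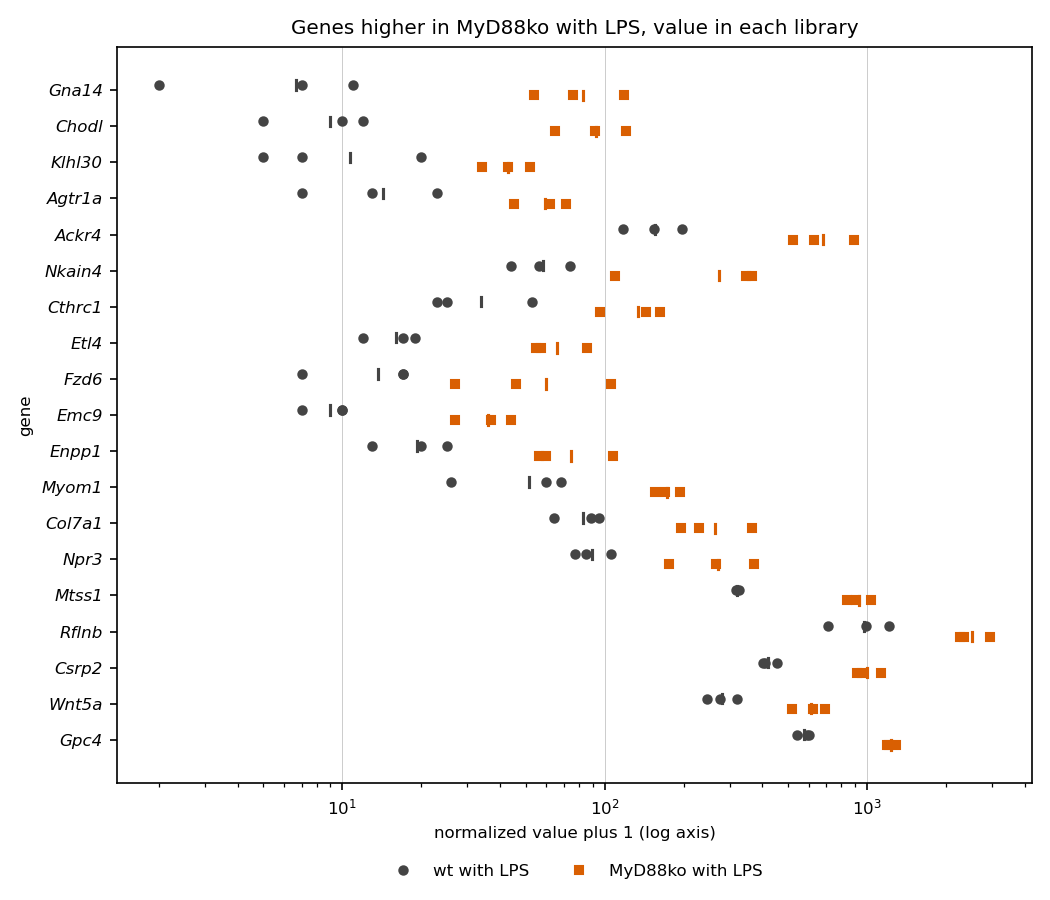
Normalized value plus 1 (log axis) in each of the 3 wt and 3 MyD88ko LPS libraries (points) with the group mean (tick) for the named genes higher in MyD88ko. The groups do not overlap for any gene shown, from Gna14 (1 to 10 against 53 to 118) to Gpc4 (540 to 601 against 1188 to 1290).

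The untreated libraries, which are separate from the LPS libraries, were used to set the same genotype difference beside that with LPS. The labels do not say whether untreated and LPS replicates come from the same animals or cultures. Both differences also share an estimate of the spread from one fit, so they may not be independent. Of the 129 genes lower with LPS, 124 (96.1%) had a negative log2 fold change in untreated cells too, and of the 56 higher genes 49 (87.5%) had a positive one, against the same sign in 54.5% of all tested genes. In untreated cells 233 genes (1.88%) were called, and 65 genes were called in both states, 47 lower and 18 higher. These were 35.1% of the calls with LPS and 27.9% of the untreated calls. None of the 65 had opposite directions.

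Some of the epithelial markers were higher in untreated wt than in untreated MyD88ko. The 8 epithelial markers with values summed to 1354, 36 and 1241 in untreated wt and to 12, 10 and 9 in untreated MyD88ko, so wt untreated replicates 1 and 3 stood apart. Gata3, a transcription factor, had 957, 23 and 258 in untreated wt and 1, 0 and 1 in untreated MyD88ko (log2 fold change −6.84, limma adjusted p = 0.000963). Cldn4, a tight-junction claudin, had 213, 7 and 122 in untreated wt and 2, 1 and 0 in untreated MyD88ko (−5.03, limma adjusted p = 0.0181). With LPS both were at 19 or less in each library. The other members were uneven. Krt19 had 166, 0 and 62 in untreated wt and 5, 6 and 4 in untreated MyD88ko. Cdh1 and Krt18 were high in wt untreated replicate 3 alone, at 719 and 68. Epcam had 11, 1 and 10 in untreated wt and 0, 0 and 1 in untreated MyD88ko. Krt20 was at 5 or less and Muc2 at 0 in each untreated library. Without wt untreated replicates 1 and 3, an alternative chosen after seeing the data that leaves a lone untreated wt library assumed to vary like the others, limma called 37 genes in untreated cells in place of 233. It called 19 in both states in place of 65, 17 lower and 2 higher, which were 11.5% of the calls with LPS and 51.4% of the untreated calls. Of the 129 lower genes 120 still had a negative untreated log2 fold change, and of the 56 higher genes 42 had a positive one. The part of the epithelial markers in the untreated calls was not tested.

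Saa3 showed the difference in both states, with 5480, 1529 and 5461 in untreated wt and 0, 5 and 17 in untreated MyD88ko. Igfbp4 had 1098, 1631 and 1146 in untreated wt and 230, 211 and 168 in untreated MyD88ko, close to its values with LPS. Chodl had 5, 11 and 11 in untreated wt and 54, 173 and 104 in untreated MyD88ko, with log2 fold changes of 3.39 untreated and 3.41 with LPS. In 45 of the lower and 19 of the higher genes, the untreated log2 fold change was at most 50% of the size of that with LPS. Il6 had 8, 5 and 15 in untreated wt and 2, 10 and 3 in untreated MyD88ko, which overlap (−0.90 untreated, −3.22 with LPS). Prox1, a transcription factor of lymphatic endothelium, had 12, 15 and 21 in untreated wt and 14, 10 and 6 in untreated MyD88ko (−0.66), against 19, 28 and 19 in wt and 5, 0 and 0 in MyD88ko with LPS (−3.64).

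**Figure D5:**
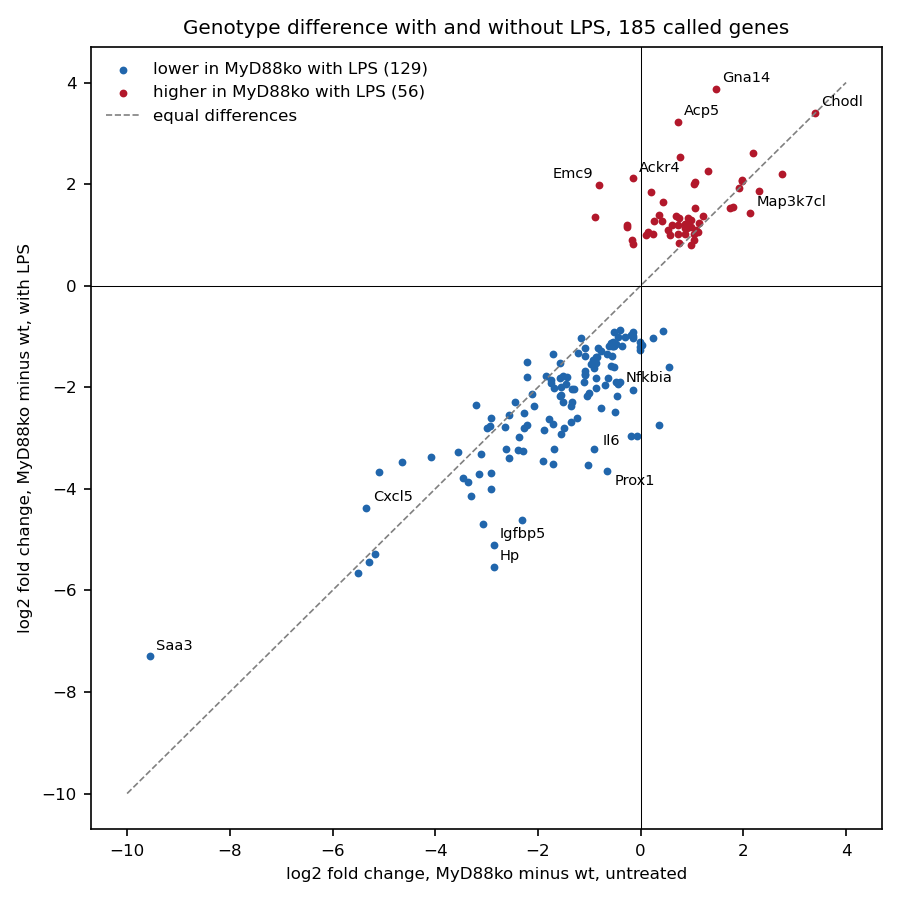
Log2 fold change (MyD88ko minus wt) with LPS (vertical axis) against that in untreated cells (horizontal axis) for the 185 genes called with LPS, lower genes in blue and higher genes in red, with a dashed line where both are equal. Saa3 (−9.55 untreated, −7.29 with LPS) lies above the line and Prox1 (−0.66, −3.64) below it.

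A test of the difference between the 2 genotype differences called 2 of 12385 genes (0.0161%), Ackr4 and Selenom, and 1137 genes (9.18%) had an unadjusted p under 0.05. Ackr4, a scavenging receptor that removes chemokines such as CCL19 and CCL21 (chromosome 9, 104084157 to 104126933, mm10), had 117, 153 and 196 in wt and 523, 890 and 629 in MyD88ko with LPS. In untreated cells it had 698, 1441 and 950 in wt and 743, 932 and 1003 in MyD88ko, so the 3 wt LPS libraries were the low ones and the other 9 values ranged from 523 to 1441. Its genotype difference was 2.12 ± 0.27 with LPS (4.35-fold higher, limma adjusted p = 0.000132) and −0.15 untreated (limma adjusted p = 0.842), and the test of the difference between these gave 2.27 ± 0.38 (limma adjusted p = 0.0468). Selenom, an endoplasmic reticulum selenoprotein named because the count was 2, had 1581, 1248 and 1405 in wt and 976, 1389 and 904 in MyD88ko with LPS, and 298, 280 and 305 in wt and 674, 774 and 841 in MyD88ko untreated (−1.76 ± 0.28, limma adjusted p = 0.0468). All untreated libraries carry lower library codes than all LPS libraries, so the treatment and the library series cannot be told apart in this test.

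In the authors' deposited table for this comparison, 77 of 14143 genes (0.544%) had an adjusted p under 0.05, 64 lower and 13 higher in MyD88ko. Of these, 64 were also among the 185 genes called here, all in the same direction, which is 83.1% of the authors' calls and 34.6% of those made here. The 13 genes called only in the authors' deposited table included Cxcl1, Col14a1, Eln and Igf2. Cxcl1, a neutrophil chemokine, had 948, 1209 and 1462 in wt and 184, 280 and 258 in MyD88ko, with no overlap and a limma adjusted p of 0.0617. Eln, which encodes elastin, had a log2 fold change of 2.65 here with a limma adjusted p of 0.178.

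By deposited gene type, 179 calls were protein-coding genes (126 lower and 53 higher of 11347 tested, 1.58%). The other 6 were 3 lincRNAs, 1 antisense RNA and 2 processed pseudogenes. H19, an imprinted lincRNA (chromosome 7, 142575529 to 142578143, mm10), had 65, 225 and 28 in wt and 2, 9 and 0 in MyD88ko (24.3-fold lower, limma adjusted p = 0.0110), and the call was lost with voom weights and without wt LPS replicate 1 or MyD88ko LPS replicate 3 (0.0505 and 0.0622). Igf2, its imprinted neighbour (142650766 to 142666816), was not called here (−2.54 ± 0.78, limma adjusted p = 0.138). Of the 2 pseudogenes, Gm11478 and Rpl9-ps7, reads may be shared with a parent gene.

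Markers of other cell types were at low levels in the LPS libraries, and their part in these differences was not tested. Summed values of the 8 of 16 epithelial markers with data were 46 to 74 in wt and 14 to 65 in MyD88ko, and Epcam, the defining marker among them, had 0 to 10. This set lacks Cdh1 and Krt18, which are in the untreated sums, and holds Lgals4 and Tff3 instead. The LPS and untreated sums are therefore not of the same genes. Those of 7 of 16 immune markers were 51 to 101 in wt and 40 to 46 in MyD88ko, and those of 3 of 13 endothelial markers 140 to 254 and 113 to 191. One of the 3, Prox1, was called lower, with 19, 28 and 19 in wt and 5, 0 and 0 in MyD88ko (12.5-fold lower, limma adjusted p = 0.00642). Flt1 had 0, 24 and 6 in wt and 22, 14 and 27 in MyD88ko, and Eng had 121, 128 and 229 in wt and 135, 177 and 86 in MyD88ko. For both the groups overlapped and neither was called, so the endothelial markers did not move together. Ptprc, Cdh1 and Pecam1 did not have values in all 6 LPS libraries and are not in these sums. The sum of 7 of 12 neural and interstitial markers was 1200 to 2578 in wt and 521 to 1408 in MyD88ko, nearly all from Tubb3, which was not called. For 8 of 14 hepatocyte markers the sums were 111 to 161 and 20 to 70, mostly Trf, an iron carrier called lower (limma adjusted p = 0.0118) at 136, 93 and 142 in wt and 44, 45 and 16 in MyD88ko, while Alb was at 0 in all 6 libraries. The call of Trf was lost without wt LPS replicate 1 or 3 or MyD88ko LPS replicate 3 (limma adjusted p = 0.0508 to 0.0803). The 10 fibroblast and mesenchymal markers, all with values, summed to 69934 to 116124 in wt and 130166 to 139705 in MyD88ko, mostly from Col1a1 and Col1a2. Such markers were abundant in both groups, but the higher sum in MyD88ko did not hold for each member. Pdgfra was called lower, at 383, 589 and 380 in wt and 131, 144 and 113 in MyD88ko. Fewer cells of a kind and less RNA per cell cannot be told apart in these bulk libraries.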

How the data were processed

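The 12 samples, 4 groups of 3, were measured by QuantSeq 3′ sequencing on an Ion Proton and deposited as 4 tables, a comparison each. Per the submitters' processing notes, mm10, Bowtie2, TopHat2 and DESeq were used by the authors, without versions or roles. Per the file headers, the authors' expression values are scores: read counts per gene normalized over the libraries and rounded. Of 166719 values given in more than 1 table, 0 differed. Per the file headers, the authors also deposited a p-value per gene, adjusted and not, and a log2 fold change. Depth was estimated from whole numbers that never occur among low values because of rounding. It is known up to a common factor, without molecular identifiers.

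A gene was tested where all 12 libraries had a value and some group's mean reached 10: 12385 genes, with 1927 genes listed for the LPS libraries not tested. The test was limma-trend (limma 3.58.1, R 4.3.3) with robust empirical Bayes on log2(value + 1), 4 group coefficients and 8 residual degrees of freedom, two-sided, with Benjamini-Hochberg adjustment over all genes. No count model was used, since the values are normalized. The procedure was tested on simulated data. The difference between the genotype differences with LPS and untreated came from the same fit.

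The comparison, the 30 function lists, the 5 marker lists and the tests were chosen with earlier results of these data known. Genes named were the 15 highest and 15 lowest protein-coding calls whose higher mean reached 20, whose groups did not overlap and whose symbol was unique and not a predicted name, the 10 higher and 10 lower with the smallest p, up to 4 members per list with the smallest p, 3 non-coding calls, and Ccl2, Cd14, Chodl, Col6a1, Cxcl1, Cxcl10, Grem1, Il6, Myd88, Ptgs2, Ticam1 and Tlr4. Other genes in the text were named after their values were seen. Lists were described by counts and medians, with no set test. Alternatives were 2 rescalings, limma without trend, voom weights, other filters and pseudocounts, the 6 LPS libraries alone, a replicate block, a fold threshold and leaving out libraries. Promoters came from RefSeq (GRCm38.p6), the first window per gene, for 8923 tested genes.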

Additional observations from a re-analysis of the deposited data

Results flagged for a closer look

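The genotype difference of Ackr4, the chemokine-scavenging receptor, was larger with LPS than in untreated cells by 2.27 ± 0.38 on the log2 scale (limma adjusted p = 0.0468). With LPS, 3 of 3 MyD88ko libraries were above all wt libraries, while in untreated cells the genotypes overlapped. The difference with LPS itself was called under all 18 alternatives, whereas the test of the difference between states called 0 genes under several of them, given in the next part. Library series and treatment cannot be told apart here, and the part of that series in the value was not tested.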

How the results depend on the processing

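Without the trend, limma called 112 genes in place of 185 (85 lower, 27 higher). Voom called 183, of which 29 were higher (15.8% of calls, against 30.3%), and moved the median log2 fold change of all genes to −0.13. The 6 LPS libraries alone gave 135 calls, 30 of them higher. Leaving out single LPS libraries gave 85 to 189 calls, 59 to 139 lower and 23 to 50 higher, and 43 to 61 called list members in place of 65. The count of calls fell by over 1.5 times without wt LPS replicate 1 (85, of which 82 were among the 185), wt LPS replicate 2 (122) or MyD88ko LPS replicate 2 (113). Calls that were not protein coding, 6 as reported, numbered 3 with voom, 2 in the 6 libraries alone and 0 to 11 with a library left out (0 without wt LPS replicate 1). The test between states called 2 genes as reported, 4 after quantile normalization, 0 without the trend, with a mean of at least 50 or with a pseudocount of 0.5, and 14 without wt untreated replicates 1 and 3 together. With a library left out it called 0 to 44 (44 without wt untreated replicate 2, 16 without replicate 3). With a replicate block 206 genes were called, 177 of them among the 185. Deviations of same-numbered wt and MyD88ko libraries correlated at 0.0358, 0.0342 and −0.114 with LPS and at 0.0939, 0.0484 and −0.0284 untreated. With 3 libraries per group these values cannot settle whether the numbers pair the samples, and the labels do not say. The block lost the calls of Fzd6 and Vcam1 among named genes.

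Of 83 named genes called, 47 stayed called under each of the 18 alternatives that tested them, and 0 reversed. Prox1, among these, was tested under 17, as it did not reach the mean of at least 50 that another required. Voom lost Cfb, Emc9, Enpp1, Fzd6, Gm26982, H19, Igfbp5, Il13ra2, Klhl30 and Lbp. Quantile normalization lost Ch25h, Ctgf and Lifr. Without the trend 26 named calls were lost, among them Col7a1, Mtss1, Igf1 and Mmp3. The causes were not tested. Called genes in the text outside the 83, such as Pdgfc, Aldh1a2, Hgf, Ube2l6, Mgst1 and Fth1, were not followed singly under the alternatives. Genes with values under 10 rest on few reads at 2.50 to 5.31 megareads, and their folds depend on the pseudocount. Without wt untreated replicates 1 and 3, an alternative chosen after seeing the data, 37 genes were called in untreated cells in place of 233, and 19 in both states in place of 65.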

Other observations

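Further called genes, named after their values were seen, are given here. Fth1, the ferritin heavy chain that stores iron, had 6210, 4986 and 4550 in wt and 2031, 2648 and 2224 in MyD88ko, 2.27-fold lower (limma adjusted p = 0.00511). Slc11a2, the iron importer DMT1, had 517, 358 and 535 in wt and 213, 221 and 196 in MyD88ko (2.20-fold lower, limma adjusted p = 0.00719). The groups did not overlap for either gene. Hif1a, the oxygen-regulated transcription factor, had 1191, 1193 and 1063 in wt and 449, 407 and 707 in MyD88ko (2.27-fold lower, limma adjusted p = 0.00755).

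Tmem176a and Tmem176b, overlapping neighbours on opposite strands of chromosome 6 (48840919 to 48847071 and 48833818 to 48841496, mm10) that encode membrane proteins of the same family, were both lower. Tmem176b had 2038, 2044 and 1478 in wt and 429, 464 and 453 in MyD88ko (4.08-fold lower, limma adjusted p = 2.81e-05). Tmem176a had 3575, 2028 and 3083 in wt and 557, 779 and 927 in MyD88ko (3.81-fold lower, limma adjusted p = 0.000214). Whether the authors' counting used strand is not given in the sources used here, so reads from the overlap cannot be assigned to 1 gene with certainty.

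MyD88ko LPS replicate 3 differed from the other MyD88ko libraries in single genes of the lists. C3 had 326 there against 1 and 8, Cxcl2 had 47 against 3 and 5, and Tnip1, an NF-κB inhibitor that binds A20, had 1081 against 188 and 185. Acp5, an acid phosphatase of osteoclasts and macrophages, was among the genes higher in MyD88ko at low values, with 0, 2 and 0 in wt and 10, 13 and 15 in MyD88ko (limma adjusted p = 0.0176).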
